A study of Mus musculus with 36 samples.

Results

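CCl4 was compared with its olive oil vehicle in livers of mice that lack dermatopontin (Dpt), a small extracellular matrix protein that binds decorin and promotes the assembly of collagen fibrils. The libraries were taken by their titles: the 9 arrays titled Dpt KO CCL4 and the 10 titled Dpt KO control, 19 of the 36 arrays of the series. The other 17 arrays are 8 oil and 9 CCl4 livers of wild-type littermates. All 36 were mouse livers labelled adult female C57BL/6, aged 10 to 12 weeks, hybridised one to an Affymetrix MoGene 2.0 ST array. CCl4 in olive oil was given by subcutaneous injection, 0.1 ml per kg 3 times weekly, as a 2% solution in week 1, rising through 4%, 5% and 6% in weeks 2, 3 and 4 to 8% from week 5 to week 8, and the livers were taken 24 hours after the last dose. Controls had olive oil alone. Both KO groups are labelled Dpt-null, which 1 oil library goes against, as its Dpt level shows; the labels do not say how the allele was made. Libraries are called here by group and the replicate number of the title.

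CCl4 is turned into a reactive radical by cytochrome P450 enzymes, chiefly Cyp2e1, in the hepatocytes around the central vein, and these cells die. Repeated injury draws in monocytes that become scar macrophages, turns the vitamin A storing stellate cells into matrix-producing myofibroblasts, and forces the surviving hepatocytes to divide and to give up part of their specialised metabolism. Dermatopontin is secreted by fibroblasts and, in the scarring liver, by stellate cells.

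Values are log2 signals, a gene's value in a library being the mean of the probe sets annotated to that gene alone, so a difference of 1 is a doubling. Where 3 levels are given together they are the lowest, the median and the highest library of the group. A log2 change is the mean of the 9 CCl4 libraries minus the mean of the 10 oil libraries with its standard error, and a gene was called at an adjusted p below 0.05 (limma, Benjamini-Hochberg over 23152 genes, two-sided). The labels do not state that each array is a separate animal, and p-values measure the spread between these samples. Whole liver was measured: fewer cells of a type and less RNA per cell cannot be told apart.

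The targeted gene was read first. Dpt lay at 3.07, 3.60 and 7.40 in the KO oil libraries and at 3.00, 3.59 and 3.86 in the KO CCl4 libraries, against 5.59, 5.96 and 6.48 in wild-type oil livers. The library labelled KO_control 10 holds the value of 7.40. Without it the highest KO oil library lay at 3.87, and the KO groups overlapped. The library labelled KO_control 10 also lay within or near the CCl4 range for most genes that CCl4 changed, so counts, list medians and the genes given by their levels are also given without it. Among wild-type libraries WT_CCl4 1 goes against its label in the other direction, with Dpt at 3.18 where the other 8 of its group lay at 7.48 to 10.12; whether these 2 libraries were exchanged was not tested, so values of the oil group that include KO_control 10 may not be those of KO oil livers alone. In KO_control 10 the skeletal muscle list had a mean level of 6.20, against a median of 3.80 in the oil group. A further library stands apart in the CCl4 group: KO_CCl4 5 had a mean level of 7.94 over 9 defining hepatocyte genes against a group median of 10.28, and 8.81 over 8 adipocyte genes against 4.71. KO_control 1, 3 and 4 expressed Y-linked genes although labelled female, up to 6.40 as a mean over 3 genes, where no CCl4 library passed 2.80. The other libraries carried the defining hepatocyte genes at high level, as the label liver implies.

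In the KO livers 5389 of 23152 genes were called (23.3%), of which 3100 rose (13.4% of all genes) and 2289 fell (9.89%). With each array centred on its own median the split turned to 2505 higher and 4710 lower, the median change over all genes moving from -0.04 to -0.13, so the balance of rises and falls rests on the scaling. Of the called genes, 637 rose (2.75%) and 283 fell (1.22%) by at least 2-fold. Leaving out the library labelled KO_control 10 gave 3519 rises (15.2%) and 2960 falls (12.8%), and 5348 of the calls were shared with the fit on all libraries. Leaving out all 5 libraries that stand apart gave 3036 rises (13.1%) and 2095 falls (9.05%), with 4369 shared calls. Only 73 genes (0.315%) had CCl4 and oil libraries that did not overlap, 47 of them higher after CCl4. Without the library labelled KO_control 10 there were 1798 (7.77%), 1157 of them higher (5% of all genes) and 641 lower (2.77%). Leaving out KO_CCl4 5 instead gave 4728 called genes (20.4%), 2826 higher (12.2%) and 1902 lower (8.22%).

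The largest rises were those of Gpnmb, a glycoprotein of lysosome-rich macrophages, and Mmp12, the macrophage elastase. Gpnmb lay at 3.29, 3.66 and 9.15 in oil and at 7.96, 8.53 and 10.74 after CCl4, a log2 change of 4.53 ± 0.47 (adjusted p = 6.23e-08). Mmp12 lay at 3.38, 3.73 and 8.07 and 7.17, 8.05 and 8.14, a change of 3.62 ± 0.37 (adjusted p = 5.08e-08). For both genes the library labelled KO_control 10 was the one oil library inside the CCl4 range, at 9.15 and 8.07; without it the changes were 5.09 and 4.05 and the groups did not overlap. Ly6d, a surface protein of the Ly6 family, lay at 4.58, 5.37 and 9.87 and 6.61, 9.18 and 10.20 (change 3.31 ± 0.47, adjusted p = 3.65e-06), its lowest CCl4 library being KO_CCl4 5. S100g, a calcium-binding protein, lay at 2.46, 3.17 and 4.94 and 2.74, 6.62 and 7.29 (change 2.73 ± 0.48, adjusted p = 5.82e-05), and here too KO_CCl4 5 was at the foot of its group, at oil level. Chil3, a chitinase-like protein of activated myeloid cells, lay at 2.35, 2.80 and 8.92 and 4.78, 6.06 and 7.20, a change of 2.69 ± 0.54 (adjusted p = 0.000325). Its oil maximum was the library labelled KO_control 10, and without it the change was 3.30. With the library labelled KO_control 10 left out, the groups did not overlap for Gpnmb (log2 change 5.09), Mmp12 (4.05), Ly6d (3.76) and Chil3 (3.30), but overlapped for S100g (2.91).

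Falls were as large. Elovl3, a fatty acid elongase, lay at 2.23, 7.19 and 10.70 in oil and at 2.37, 2.76 and 3.75 after CCl4, a change of -4.71 ± 0.82 (adjusted p = 5.15e-05). Its level in oil divided by the Y-linked expression above: the 3 libraries with Y-linked genes lay between 10.13 and 10.70, the other 6 between 6.34 and 7.49, and the library labelled KO_control 10 at 2.23. Without all 5 libraries that stand apart the change was -4.15 (adjusted p = 6.24e-05). Cyp2c38, a cytochrome P450 of the Cyp2c family, ran the other way among the oil libraries, with 6.57 to 7.95 in the 3 and 9.50 to 10.41 in the 6, and fell by 4.10 ± 0.78 on the log2 scale (adjusted p = 0.000178). Ces3b, a carboxylesterase, lay at 4.70, 9.30 and 10.03 and 2.28, 5.21 and 6.36, a change of -3.67 ± 0.58 (adjusted p = 1.25e-05). Sult2a8, a sulfotransferase, lay at 4.44, 9.42 and 10.10 and 2.36, 5.84 and 7.23, a change of -3.37 ± 0.60 (adjusted p = 6.61e-05). In both, the library labelled KO_control 10 was the lowest oil library and KO_CCl4 5 the lowest CCl4 library. Rgs16, a regulator of G protein signalling, lay at 5.65, 9.05 and 9.97 and 5.27, 5.94 and 6.61, a change of -2.59 ± 0.56 (adjusted p = 0.000757), with the library labelled KO_control 10 inside the CCl4 range. The Mup, Sult, Ces, Cyp2c and Ugt2b genes have near-identical copies, and whether their probe sets tell them apart was not tested. Once the library labelled KO_control 10 was left out, the groups lay apart for Elovl3 (log2 change -5.30), Ces3b (-4.12), Sult2a8 (-3.86) and Rgs16 (-2.90).

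**Figure D1:**
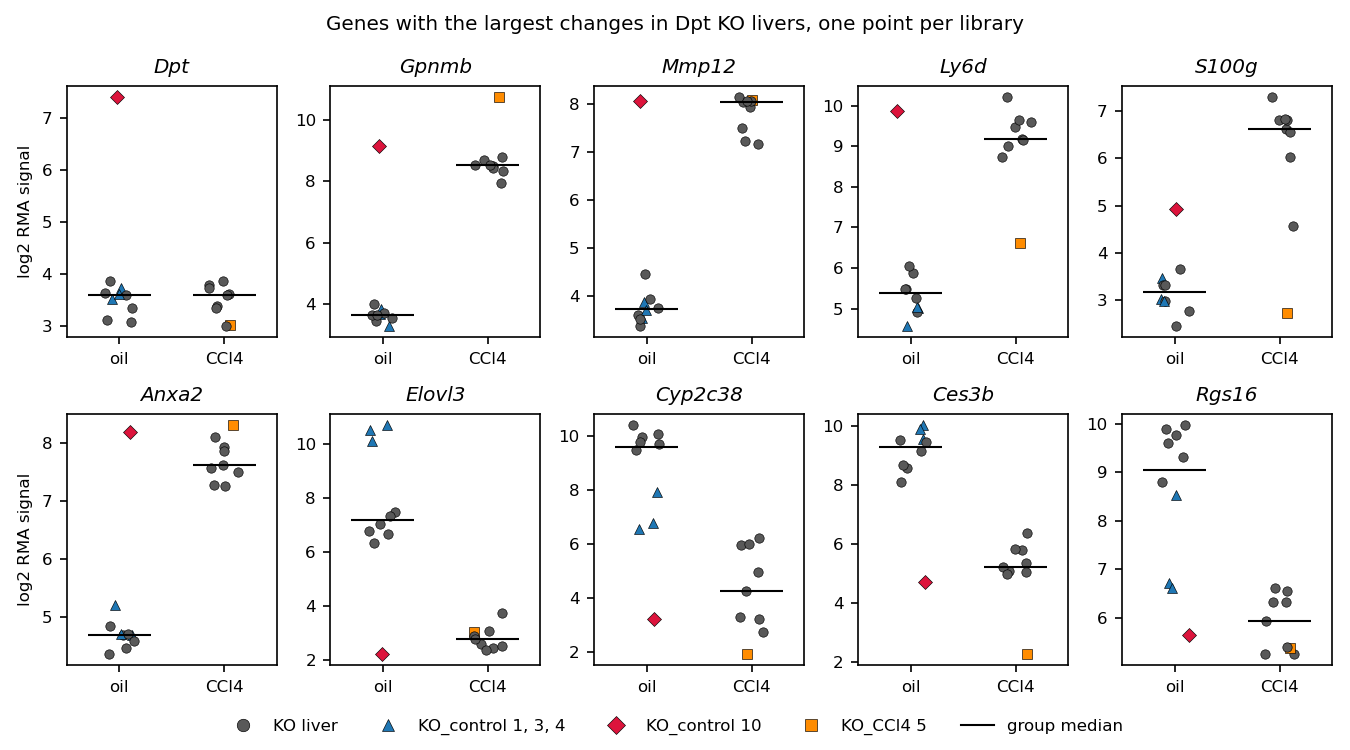
Log2 signal of Dpt and 9 genes with large changes in each Dpt KO library, oil on the left and CCl4 on the right of each panel, with the group median as a bar; diamonds mark the library labelled KO_control 10, triangles the oil libraries with Y-linked expression and squares KO_CCl4 5. For Gpnmb the 9 other oil libraries lie at or below 3.99 and all CCl4 libraries at or above 7.96.

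Matrix genes beyond the fibril-forming collagens rose widely. Of 15 network and beaded collagens 11 rose and 4 did not pass the test (median log2 change 0.65, against -0.04 over all genes). Col6a3, a chain of the microfibrillar collagen VI that surrounds cells, lay at 3.86, 4.39 and 7.02 in oil and at 6.37, 6.85 and 7.12 after CCl4, a change of 2.17 ± 0.25 (adjusted p = 1.25e-07). Col6a1 changed by 1.58 ± 0.28 (adjusted p = 5.93e-05) and Col6a2 by 1.26 ± 0.25 (adjusted p = 0.00025). Col4a1, a collagen IV chain of the basement membrane, lay at 4.47, 5.27 and 7.26 in oil and at 6.25, 6.91 and 7.78 after CCl4, a change of 1.50 ± 0.22 (adjusted p = 4.23e-06). Its partner chain Col4a2 changed by 1.26 ± 0.19 (adjusted p = 9.44e-06). In all 5 the library labelled KO_control 10 was the highest oil library, and the groups did not overlap without it. Col12a1, which lies on the surface of collagen fibrils, changed by 1.49 ± 0.21 (adjusted p = 2.36e-06). Col18a1, the parent of endostatin, lay at 7.07, 7.80 and 7.94 and 5.32, 7.19 and 7.50 and did not pass the test (change -0.62 ± 0.24, adjusted p = 0.0537); without the library labelled KO_control 10 it was called lower (-0.69, adjusted p = 0.0304). Of the 8 fibrillar collagens 5 rose, and Col5a3, Col11a1 and Col27a1 did not pass the test, with changes between -0.17 and 0.05. Leaving out the library labelled KO_control 10, the oil and CCl4 libraries did not overlap for Col6a3 (log2 change 2.44) and Col4a1 (1.70), and overlapped for Col18a1 (-0.69). The same counts without the library labelled KO_control 10 were 5 higher of 8 fibrillar collagens (median 1.48) and 11 higher and 1 lower of 15 network and beaded collagens (median 0.69). With arrays centred on their medians there were 5 higher and 1 lower of 8 fibrillar collagens (median 1.24) and 9 higher and 1 lower of 15 network and beaded collagens (median 0.56). Of the network and beaded collagens, those called were 10 higher and 1 lower without KO_control 7, 9 higher and 1 lower without KO_CCl4 1 and 11 higher and 1 lower without KO_CCl4 9.

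Of 13 laminins, nidogens and perlecan measured, which form the basement membrane that normal sinusoids largely lack, 9 rose (median 0.63). Nid1, which bridges laminin and collagen IV, lay at 5.71, 6.12 and 8.94 in oil and at 7.79, 8.42 and 8.85 after CCl4, a change of 2.04 ± 0.27 (adjusted p = 1.09e-06). Lamb1 and Lamc1, the beta and gamma chains shared by several laminins, changed by 1.15 ± 0.21 (adjusted p = 8.91e-05) and 0.98 ± 0.18 (adjusted p = 0.000101), and the alpha chain Lama2 by 0.94 ± 0.19 (adjusted p = 0.000428). Hspg2, the gene of perlecan, changed by 0.75 ± 0.18 (adjusted p = 0.0019). KO_CCl4 5 was the highest CCl4 library in all 5, at 8.15 for Lamb1 against 6.51 in the next. Lama4, the endothelial alpha chain, lay at 4.49, 4.94 and 5.50 and 4.69, 4.93 and 8.23 and did not pass the test (change 0.34 ± 0.31, adjusted p = 0.47), and its highest value is again that of KO_CCl4 5. When the library labelled KO_control 10 was set aside, the groups lay apart for Nid1 (log2 change 2.33), but overlapped for Lama4 (0.40). Leaving the library labelled KO_control 10 out gave 9 higher of 13 laminin and nidogen genes (median 0.70).

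Of 16 elastic fibre genes 13 rose (median 0.88). Elastin itself, Eln, lay at 4.08, 4.30 and 5.98 in oil and at 5.46, 6.25 and 6.69 after CCl4, a change of 1.79 ± 0.21 (adjusted p = 1.45e-07). Fbn1, the fibrillin of the microfibrils on which elastin is laid down, lay at 3.97, 4.26 and 6.84 and 6.31, 6.66 and 8.15, a change of 2.29 ± 0.28 (adjusted p = 3.89e-07), and Ltbp2, a latent TGF-beta binding protein family member, changed by 1.94 ± 0.21 (adjusted p = 7.62e-08). The oil libraries other than the one labelled KO_control 10 reached only 4.65 for Eln, 4.53 for Fbn1 and 4.15 for Ltbp2, below every CCl4 library. Fbln2, a fibulin, rose by 1.08 ± 0.35 (adjusted p = 0.0202), but lost its call without KO_CCl4 5 (0.75, adjusted p = 0.0534). Of 16 matricellular genes 13 rose (median 1.07). Tnc, tenascin C of wound matrix, changed by 2.58 ± 0.32 (adjusted p = 4.35e-07), Thbs1, a thrombospondin that activates latent TGF-beta, by 2.34 ± 0.41 (adjusted p = 5.39e-05), and Sparcl1 by 2.46 ± 0.34 (adjusted p = 2.78e-06). The CCN family members Ccn1, Ccn3 and Ccn5 did not pass the test, with changes of 0.06, 0.11 and -0.01. Without the library labelled KO_control 10 the oil and CCl4 ranges were separate for Eln (log2 change 1.96) and Fbn1 (2.55). With the other 9 oil libraries alone the counts were 14 higher of 16 elastic fibre genes (median 0.99) and 13 higher of 16 matricellular genes (median 1.17). Without KO_control 1, 3 and 4, Fbln2 was not called, with a change of 0.99 (adjusted p = 0.0802).

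Of 14 PDGF and TGF-beta ligands and receptors 11 rose (median 0.79). Among the ligands, Pdgfc lay at 4.78, 5.29 and 6.21 in oil and at 6.26, 6.71 and 6.92 after CCl4, a change of 1.36 ± 0.14 (adjusted p = 4.73e-08), and all CCl4 libraries lay above all oil libraries. Tgfb1 and Tgfb3 changed by 1.16 ± 0.18 (adjusted p = 1.32e-05) and 1.50 ± 0.28 (adjusted p = 0.000107), while Pdgfa lay at 4.60, 4.96 and 5.23 and 4.93, 5.09 and 5.41 and did not pass the test (change 0.17 ± 0.08, adjusted p = 0.132). Among the receptors, Pdgfra changed by 1.89 ± 0.31 (adjusted p = 2.17e-05) and Tgfbr2 by 1.01 ± 0.18 (adjusted p = 5.58e-05), whereas the co-receptors Tgfbr3 and Eng did not pass the test (0.40 and 0.22). Of 14 matrix-binding integrin chains 12 rose (median 0.65). Itgav and Itgb5 pair into a receptor for vitronectin and latent TGF-beta. Itgav lay at 6.54, 6.74 and 8.14 in oil and at 7.30, 7.81 and 8.35 after CCl4, a change of 0.93 ± 0.16 (adjusted p = 4.27e-05), and Itgb5 changed by 0.98 ± 0.12 (adjusted p = 3.62e-07). Itga6, a laminin receptor chain, changed by 1.77 ± 0.24 (adjusted p = 1.56e-06). Itga8, a stellate cell integrin, changed by 1.12 ± 0.33 (adjusted p = 0.0126), with KO_CCl4 5 at 3.99, under every oil library, and the next CCl4 library at 6.42. Itgb3 and Itgb6 did not pass the test (0.10 and 0.07). In the absence of the library labelled KO_control 10, oil and CCl4 libraries lay apart for Pdgfc (log2 change 1.47) and Itgav (1.07), and overlapped for Pdgfa (0.20). Set against the 9 other oil libraries, the counts were 12 higher of 14 PDGF and TGF-beta genes (median 0.88) and 12 higher of 14 integrin chains (median 0.74).

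The stellate cell lists divided. Of 14 genes of activated stellate cells 10 rose (median 1.50); Tagln, a smooth muscle actin-binding protein, lay at 4.20, 4.74 and 6.97 in oil and at 6.40, 6.62 and 6.82 after CCl4, a change of 1.72 ± 0.21 (adjusted p = 3.3e-07), and S100a6 changed by 1.94 ± 0.35 (adjusted p = 8.17e-05). Actg2, Tpm2 and Fap did not pass the test (0.20, 0.41 and 0.27), and Tpm2 lay highest in the library labelled KO_control 10, at 6.41, whose skeletal muscle list was high as well; the part of muscle RNA in that value was not tested. Of 13 genes of resting stellate cells 3 rose and 4 fell (median 0.08). Cygb, the globin of stellate cells, lay at 5.39, 5.98 and 7.87 in oil and at 7.16, 7.49 and 8.38 after CCl4, a change of 1.54 ± 0.20 (adjusted p = 1.34e-06), and Nes, the filament protein nestin, changed by 0.55 ± 0.13 (adjusted p = 0.0013). Nes and the other exceptions within a list that are named below outside the rule for named genes were chosen after their values were seen. Vipr1, a neuropeptide receptor, Angptl6, an angiopoietin-like protein, and Ecm1 fell, with changes of -0.68 ± 0.19 (adjusted p = 0.00834), -0.64 ± 0.19 (adjusted p = 0.0102) and -0.59 ± 0.16 (adjusted p = 0.00609). Ecm1 was an exception among these in that the library labelled KO_control 10, at 8.58, was the highest oil library, so it did not lie on the CCl4 side. Des, the intermediate filament desmin, and Colec11, a soluble lectin, were called (1.24 ± 0.46, adjusted p = 0.0476 and -0.69 ± 0.24, adjusted p = 0.0339) but not without KO_CCl4 5 (adjusted p = 0.0897 and 0.098). With the library labelled KO_control 10 left out, the groups did not overlap for Tagln (log2 change 1.95) and Cygb (1.74). Counted without the library labelled KO_control 10, there were 10 higher of 14 activated stellate genes (median 1.67) and 4 higher and 4 lower of 13 resting stellate genes (median 0.14). Without KO_CCl4 5 the values were 3 higher and 3 lower of 13 resting stellate genes (median 0.30). Centring the arrays gave 3 higher and 4 lower of 13 resting stellate genes (median -0.01). Leaving out one of the 19 libraries at a time the call was lost for Des in 16 fits (adjusted p up to 0.0897, without KO_CCl4 5) and Colec11 in 5 fits (adjusted p up to 0.098, without KO_CCl4 5). With the 3 oil libraries that express Y-linked genes left out, Angptl6, Des and Colec11 were not called, with changes of -0.57, 1.11 and -0.58 (adjusted p = 0.0547, 0.148 and 0.147).

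Myeloid genes rose together. Of 16 genes of lipid-handling scar macrophages 11 rose (median 1.39). Trem2, the lipid receptor that marks these cells, lay at 3.90, 4.27 and 6.72 in oil and at 5.90, 6.31 and 7.50 after CCl4, a change of 2.00 ± 0.25 (adjusted p = 5.85e-07). Cd63, a tetraspanin of lysosomes, lay at 4.38, 5.27 and 8.02 and 7.40, 7.91 and 9.00, a change of 2.58 ± 0.29 (adjusted p = 1.34e-07), and Lpl, lipoprotein lipase, changed by 2.67 ± 0.39 (adjusted p = 5.3e-06). Lpl and other genes of fat uptake are shared with adipocytes, and KO_CCl4 5, with the high adipocyte list, was the highest library for Lpl at 9.95; without it the change was 2.46 (adjusted p = 1.4e-05). Lipa, Plin2 and Atp6v0d2 did not pass the test, with changes of 0.22, 0.31 and 1.28. Nor did Fabp5 and Apoe, with changes of -0.33 and -0.11 (adjusted p = 0.421 and 0.597). Once the library labelled KO_control 10 was left out, the groups lay apart for Trem2 (log2 change 2.25) and Cd63 (2.87). Against the remaining 9 oil libraries there were 12 higher of 16 scar macrophage genes (median 1.59).

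The resident Kupffer cell list moved less: 5 of 14 genes rose and 9 did not pass the test (median 0.35; 0.56 without KO_CCl4 5). Marco changed most, by 2.25 ± 0.34 (adjusted p = 8.42e-06). Adgre1, the F4/80 antigen of mouse macrophages, changed by 1.33 ± 0.22 (adjusted p = 2.31e-05). Cd5l, a secreted inhibitor of macrophage death, changed by 1.01 ± 0.24 (adjusted p = 0.00166), and Folr2, a folate receptor, by 0.74 ± 0.17 (adjusted p = 0.00146). The other gene that rose was Hmox1. Clec4f, a lectin found on mouse Kupffer cells, lay at 7.60, 7.80 and 7.98 in oil and at 4.09, 7.50 and 8.04 after CCl4 (change -0.62 ± 0.36, adjusted p = 0.216). KO_CCl4 5 holds its lowest value, and the other 8 CCl4 libraries lay between 7.08 and 8.04, across the oil range. The oil and CCl4 libraries overlapped for Clec4f, also without the library labelled KO_control 10 (log2 change -0.62). Vsig4, Timd4 and Cd163 did not pass the test, with changes of 0.35, -0.30 and -0.31. The same counts without the library labelled KO_control 10 were 7 higher of 14 Kupffer genes (median 0.45). Without all 5 libraries that stand apart they were 7 higher and 1 lower (median 0.65). The gene called lower there was Cd163, with a change of -0.77 (adjusted p = 0.0194).

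Of 10 complement C1q and complement receptor genes 8 rose (median 1.30). C1qa and C1qb encode chains of the first complement component, made by macrophages. C1qb lay at 7.71, 8.07 and 9.96 in oil and at 8.62, 9.82 and 10.50 after CCl4, a change of 1.49 ± 0.21 (adjusted p = 3.85e-06), and C1qa changed by 1.28 ± 0.22 (adjusted p = 3.34e-05). The anaphylatoxin receptors C3ar1 and C5ar1 changed by 2.50 ± 0.32 (adjusted p = 6.54e-07) and 1.31 ± 0.27 (adjusted p = 0.000471), while C5ar2 did not pass the test (0.22). Of 15 leukocyte integrins and Fc receptors 13 rose (median 1.49). Among the activating Fc gamma receptors, Fcgr1 lay at 4.95, 5.56 and 7.30 and 6.32, 7.49 and 8.18, a change of 1.76 ± 0.21 (adjusted p = 1.94e-07), and Fcgr4 changed by 1.82 ± 0.29 (adjusted p = 1.85e-05). The inhibitory receptor Fcgr2b lay at 6.80, 7.22 and 7.93 and 6.91, 7.27 and 7.91 and did not pass the test (change 0.07 ± 0.13, adjusted p = 0.752). When the library labelled KO_control 10 was set aside, the groups lay apart for C1qb (log2 change 1.69) and Fcgr1 (1.95), but overlapped for Fcgr2b (0.15). Leaving the library labelled KO_control 10 out gave 8 higher of 10 complement genes (median 1.50) and 14 higher of 15 leukocyte integrin and Fc receptor genes (median 1.64).

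Of 18 monocyte chemokines and receptors 13 rose and 1 fell (median 0.75). Ccr2, the receptor that brings monocytes out of the marrow, lay at 2.78, 2.96 and 5.00 in oil and at 4.57, 4.84 and 5.34 after CCl4, a change of 1.76 ± 0.20 (adjusted p = 9.55e-08), and the groups did not overlap without the library labelled KO_control 10. The ligands Ccl6, Ccl3 and Cxcl16 changed by 2.40 ± 0.35 (adjusted p = 4.65e-06), 2.15 ± 0.24 (adjusted p = 1.25e-07) and 1.23 ± 0.18 (adjusted p = 4.09e-06), and Cx3cr1, the fractalkine receptor, by 1.37 ± 0.18 (adjusted p = 1.56e-06). Ccl5, a T cell and monocyte attractant, lay at 4.92, 5.53 and 5.88 and 5.88, 6.38 and 7.39, a change of 1.01 ± 0.24 (adjusted p = 0.00175), and the library labelled KO_control 10, at 5.58, stayed near the oil median. The gene that fell was Ccl24, an eosinophil attractant, with a change of -0.43 ± 0.14 (adjusted p = 0.0236), called no longer without KO_control 5 (-0.36, adjusted p = 0.0574). Ccl7, Ccl9 and Ccl12 did not pass the test (0.28, 0.26 and 0.17). Without the library labelled KO_control 10 the oil and CCl4 ranges were separate for Ccr2 (log2 change 1.97), while they overlapped for Ccl5 (1.02). With the other 9 oil libraries alone the counts were 15 higher and 1 lower of 18 chemokine genes (median 0.90). With single libraries left out in turn the call was lost for Ccl24 in 2 fits (adjusted p up to 0.0574, without KO_control 5).

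Of 12 MHC class II genes and co-stimulators, which present antigen to T cells, 9 rose (median 0.65). Cd74, the invariant chain, lay at 7.87, 8.71 and 9.98 in oil and at 9.11, 9.74 and 11.22 after CCl4, a change of 1.19 ± 0.28 (adjusted p = 0.00181). H2-Ab1, H2-Aa and H2-Eb1 changed by 0.99 ± 0.27 (adjusted p = 0.00614), 0.86 ± 0.24 (adjusted p = 0.00688) and 0.88 ± 0.20 (adjusted p = 0.00109), and their master regulator Ciita by 0.19, which did not pass the test. B and plasma cells also carry these genes. Of 10 genes of the B and plasma cell list 1 rose, a share below the 13.4% of all genes. It was Jchain of secreted antibody, which lay at 2.66, 3.12 and 6.69 and 3.57, 5.00 and 9.44. Its change was 1.92 ± 0.59 (adjusted p = 0.0157), with KO_CCl4 5 highest. The B and plasma cell list had mean levels of 4.02 to 5.14 in oil and 4.40 to 6.24 after CCl4. Its part in the class II result was not tested. Of 16 inflammasome and interleukin 1 genes 8 rose (median 0.57). The proteases Casp1 and Casp4 changed by 1.29 ± 0.23 (adjusted p = 7.38e-05) and 1.07 ± 0.22 (adjusted p = 0.000472), the adaptor Pycard by 0.86 ± 0.18 (adjusted p = 0.000592) and the cytokine Il1b by 0.99 ± 0.28 (adjusted p = 0.0084), its natural antagonist Il1rn rising by 0.65 ± 0.20 (adjusted p = 0.0145). Il18 and Il33 did not pass the test and differed in sign (-0.42 and 0.67). In the absence of the library labelled KO_control 10, oil and CCl4 libraries lay apart for Cd74 (log2 change 1.32) and Jchain (2.28). Set against the 9 other oil libraries, the counts were 9 higher of 12 class II genes (median 0.71), 9 higher and 1 lower of 16 inflammasome genes (median 0.64) and 2 higher of 10 B and plasma cell genes (median 0.21). Leaving out KO_CCl4 5 gave 1 higher of 10 B and plasma cell genes (median 0.06). On centred arrays the counts were 8 higher and 1 lower of 16 inflammasome genes (median 0.48) and 1 higher of 10 B and plasma cell genes (median 0.11). Of the inflammasome genes, those called were 8 higher and 1 lower without KO_CCl4 1. Leaving out KO_control 1, 3 and 4, Jchain and Il1rn were not called, with changes of 1.75 and 0.38 (adjusted p = 0.0688 and 0.189).

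Calcium-binding proteins of membrane repair and cell stress changed on a similar scale: 12 of 17 annexins and S100 proteins rose and 2 fell (median 0.78). Anxa2, which binds plasminogen at the cell surface, lay at 4.37, 4.70 and 8.19 in oil and at 7.25, 7.62 and 8.30 after CCl4, a change of 2.67 ± 0.34 (adjusted p = 5.63e-07). Anxa5 lay at 8.15, 8.30 and 10.33 and 9.85, 10.24 and 10.50, a change of 1.59 ± 0.20 (adjusted p = 4.35e-07), and S100a11, Anxa1 and Anxa3 changed by 2.48 ± 0.31 (adjusted p = 4.35e-07), 2.41 ± 0.40 (adjusted p = 2.73e-05) and 2.21 ± 0.29 (adjusted p = 1.3e-06). Anxa6, Anxa7 and S100a16 did not pass the test, with changes between -0.01 and 0.08. The members that fell were S100a13 and S100a1, by 0.41 and 0.35 on the log2 scale (adjusted p = 0.00254 and 0.0217). Of 14 ductular and progenitor genes 9 rose (median 0.54). Epcam, the epithelial adhesion molecule of bile duct cells, lay at 3.45, 3.81 and 4.68 and 4.00, 4.87 and 5.54, a change of 1.03 ± 0.17 (adjusted p = 2.04e-05). Prom1, Sox4 and Cd24a changed by 1.55 ± 0.31 (adjusted p = 0.000306), 1.14 ± 0.18 (adjusted p = 1.12e-05) and 1.10 ± 0.31 (adjusted p = 0.00718). Krt19 and Sox9, a cytokeratin and a transcription factor of bile ducts, did not pass the test (0.41 and 0.41); without the library labelled KO_control 10 Krt19 was called (0.53, adjusted p = 0.00572). With the library labelled KO_control 10 left out, the groups did not overlap for Anxa2 (log2 change 3.02), Anxa5 (1.79) and Epcam (1.13). Counted without the library labelled KO_control 10, there were 11 higher and 2 lower of 17 annexin and S100 genes (median 0.86) and 10 higher of 14 ductular genes (median 0.58). In the fit without KO_control 1, 3 and 4, S100a1 was not called, with a change of -0.23 (adjusted p = 0.192).

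**Figure D2:**
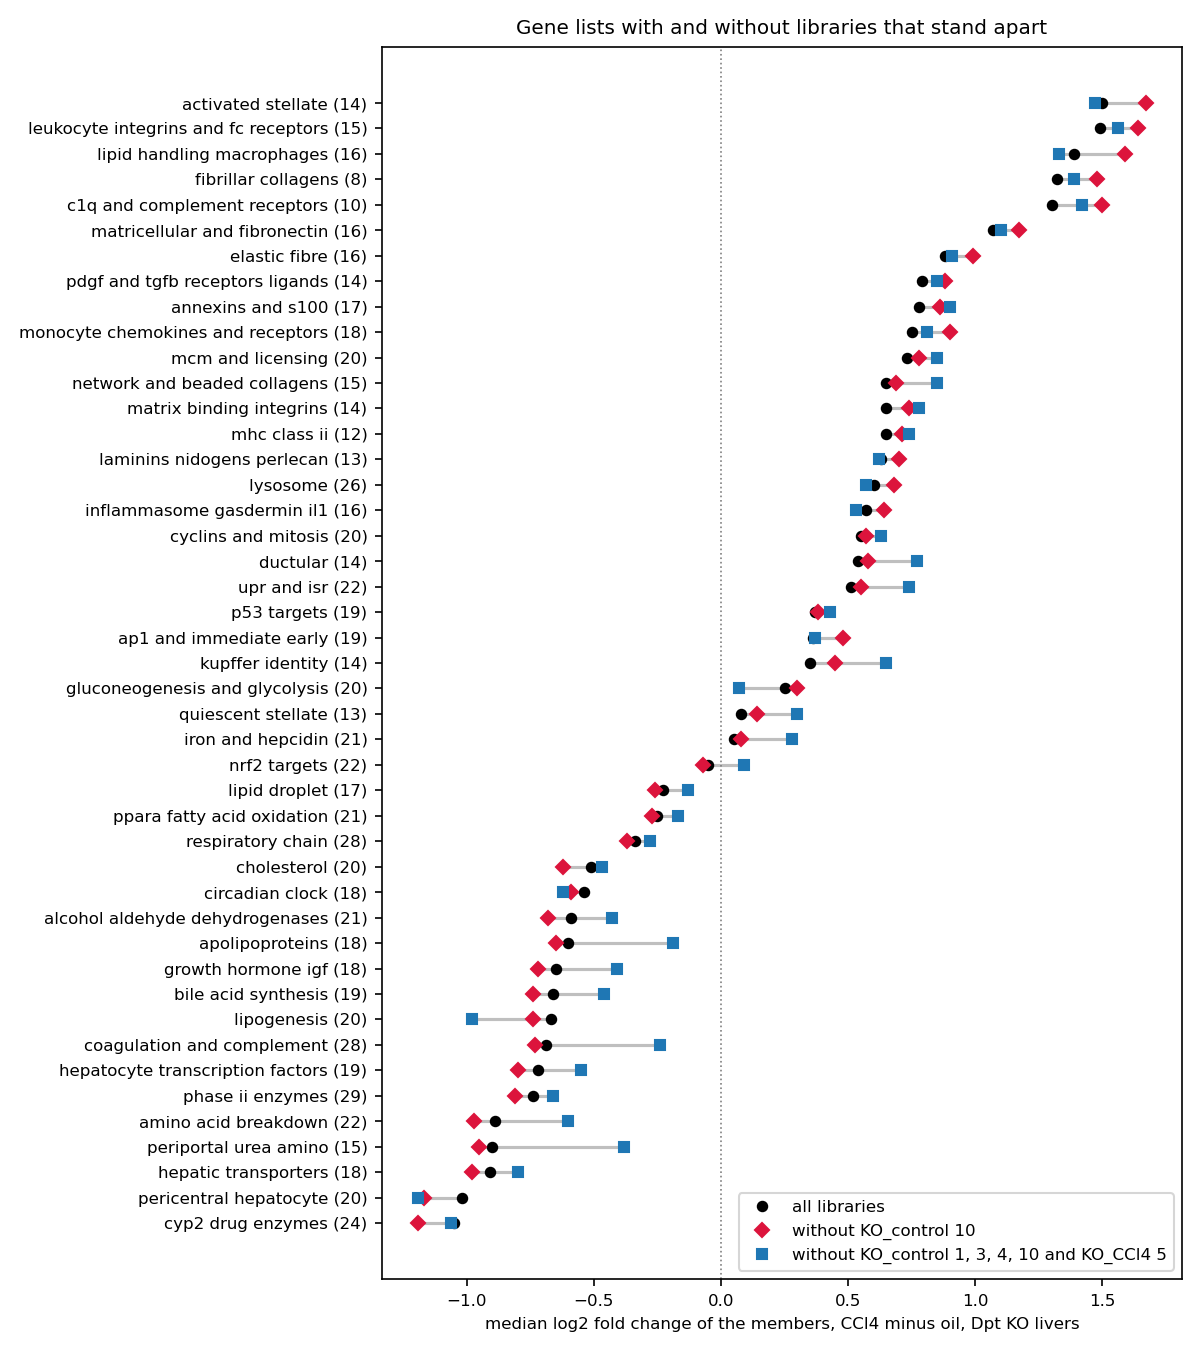
Median log2 change of the measured members of each gene list in the Dpt KO livers (number of members in brackets), with all libraries, without the library labelled KO_control 10, and without KO_control 1, 3, 4 and 10 and KO_CCl4 5. The activated stellate list has the highest median, 1.50, and the Cyp2 list the lowest, -1.05.

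Stress programmes moved in part. Of 19 targets of p53 7 rose (median 0.37). Cdkn1a, the p21 inhibitor of the cell cycle, lay at 4.47, 4.94 and 6.90 in oil and at 5.99, 6.83 and 7.29 after CCl4, a change of 1.65 ± 0.23 (adjusted p = 2.36e-06). The death receptors Tnfrsf10b and Eda2r changed by 1.36 ± 0.20 (adjusted p = 5.46e-06) and 1.03 ± 0.18 (adjusted p = 4.81e-05), and Phlda3 and Zmat3 by 0.85 ± 0.19 (adjusted p = 0.000886) and 0.59 ± 0.13 (adjusted p = 0.000886). Ccng1, cyclin G1, was called (0.58 ± 0.19, adjusted p = 0.0255), but not without KO_CCl4 5 (adjusted p = 0.0549). Of 22 targets of NRF2, the factor that answers oxidants, 5 rose and 2 fell (median -0.05, and 0.09 without all 5 libraries that stand apart). Over all genes 13.4% rose and 9.89% fell, so the share of NRF2 targets that fell was close to that of all genes. The risers included Hmox1, heme oxygenase, with 5.00, 5.85 and 8.04 and 6.85, 7.86 and 8.22 and a change of 1.66 ± 0.24 (adjusted p = 4.58e-06), Slc7a11, the cystine importer, with 1.39 ± 0.26 (adjusted p = 0.000149), and Abcc4, an export pump, with 1.55 ± 0.23 (adjusted p = 4.63e-06). Hmox1 is also a gene of Kupffer cells. The others were Gsta1 (0.85 ± 0.19, adjusted p = 0.00126) and Srxn1, sulfiredoxin (0.52 ± 0.19, adjusted p = 0.041), the second not called without KO_CCl4 8 (0.43, adjusted p = 0.0963). Gsta4 fell (-0.72 ± 0.19, adjusted p = 0.0045). The chains of glutamate-cysteine ligase did not rise: Gclm fell by 0.61 ± 0.21 (adjusted p = 0.0336; 0.0903 without KO_CCl4 5), and Gclc lay at 8.87, 9.27 and 9.86 and 6.18, 9.11 and 9.37 and did not pass the test (change -0.49 ± 0.31, adjusted p = 0.263). Once the library labelled KO_control 10 was left out, the groups lay apart for Cdkn1a (log2 change 1.84) and Hmox1 (1.88), while they overlapped for Gclc (-0.48). Against the remaining 9 oil libraries there were 8 higher of 19 p53 targets (median 0.38) and 5 higher and 2 lower of 22 NRF2 targets (median -0.07). With KO_CCl4 5 left out the counts were 5 higher and 1 lower of 22 NRF2 targets (median 0.06). With arrays centred on their medians there were 4 higher and 3 lower of 22 NRF2 targets (median -0.14). Over the 19 fits that leave out one library the call was lost for Srxn1 in 14 fits (adjusted p up to 0.0963, without KO_CCl4 8) and Gclm in 3 fits (adjusted p up to 0.0903, without KO_CCl4 5). Once KO_control 1, 3 and 4 were set aside, Ccng1, Srxn1, Gsta4 and Gclm were not called, with changes of 0.45, 0.55, -0.56 and -0.57 (adjusted p = 0.153, 0.073, 0.0523 and 0.105).

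Of 19 immediate early genes 6 rose and 2 fell (median 0.36). The share that fell was close to the 9.89% of all genes, and 13.4% of all genes rose. Klf6, a zinc finger factor of injured liver, changed by 1.15 ± 0.23 (adjusted p = 0.000399), Myc by 0.95 ± 0.23 (adjusted p = 0.00209), Ier3 by 0.87 ± 0.26 (adjusted p = 0.0137) and Fosl2 by 0.60 ± 0.18 (adjusted p = 0.0111). Ier2 fell from 4.50, 5.10 and 6.58 to 4.42, 4.74 and 4.94, a change of -0.71 ± 0.22 (adjusted p = 0.0185), and its highest oil value was not that of the library labelled KO_control 10, which lay at 5.08. Junb fell too (-0.53 ± 0.20, adjusted p = 0.0476), but not without KO_control 4 (-0.44, adjusted p = 0.105). Fosl1, Nr4a1 and Klf4 did not pass the test, with changes of 0.51, 0.79 and 0.64. The oil and CCl4 libraries overlapped for Ier2, also without the library labelled KO_control 10 (log2 change -0.74). The same counts without the library labelled KO_control 10 were 7 higher and 2 lower of 19 immediate early genes (median 0.48). Dropping each of the 19 libraries in turn ended the call of Junb in 11 fits (adjusted p up to 0.105, without KO_control 4). Without KO_control 1, 3 and 4, Ier3, Ier2 and Junb were not called, with changes of 0.77, -0.58 and -0.42 (adjusted p = 0.0688, 0.0772 and 0.177).

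The unfolded protein response, which raises chaperones when proteins misfold in the endoplasmic reticulum, moved with KO_CCl4 5 as an exception. Of 22 genes of this response and the linked integrated stress response 11 rose and 1 fell (median 0.51). Sdf2l1, a chaperone partner, lay at 5.55, 6.26 and 7.47 in oil and at 5.98, 8.01 and 8.35 after CCl4, a change of 1.53 ± 0.26 (adjusted p = 3.4e-05). Creld2, a secreted stress protein, lay at 6.43, 6.73 and 8.16 and 7.09, 8.42 and 9.12, a change of 1.51 ± 0.25 (adjusted p = 2.19e-05). Hspa5, the chaperone BiP, lay at 7.38, 7.68 and 8.47 and 7.29, 8.71 and 9.14, a change of 0.82 ± 0.20 (adjusted p = 0.00201), and Pdia4, a disulfide isomerase, at 9.45, 9.57 and 10.31 and 9.11, 10.84 and 10.96, a change of 0.96 ± 0.20 (adjusted p = 0.000391). In all 4 the lowest CCl4 library was KO_CCl4 5, within or under the oil range, and the 8 others lay above all oil libraries except that labelled KO_control 10 for Creld2 and Hspa5. Atf3 and Ddit3, transcription factors of the stress response, changed by 1.87 ± 0.25 (adjusted p = 1.4e-06) and 1.17 ± 0.17 (adjusted p = 5.24e-06), and in them KO_CCl4 5, at 7.36 and 5.31, lay above the 9 other oil libraries at 5.64 and 4.88. Herpud1, of protein degradation at the endoplasmic reticulum, was the gene that fell, from a median of 10.08 to 9.37 (change -0.75 ± 0.15, adjusted p = 0.000379). Dnajc3, Atf5 and Chac1 did not pass the test (0.50, 0.47 and -0.34); without all 5 libraries that stand apart Dnajc3 and Atf5 did (0.73 and 0.83, adjusted p = 0.00416 and 0.00402). The oil and CCl4 libraries overlapped for Sdf2l1, Creld2, Hspa5 and Pdia4, also without the library labelled KO_control 10 (log2 changes 1.67, 1.65, 0.90 and 1.03). Leaving the library labelled KO_control 10 out gave 11 higher and 2 lower of 22 stress response genes (median 0.55). Centring the arrays gave 10 higher and 2 lower of 22 stress response genes (median 0.42).

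The windows before the starts of these genes were read for short motifs, because members of the list rose together. Promoter windows were found by symbol for 17706 of the 23152 genes in RefSeq (GRCm38.p6), and 10 motifs were searched on both strands over the 250 bases before each start. The endoplasmic reticulum stress element, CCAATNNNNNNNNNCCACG, was in 6 of the 21 windows of the list (Hspa5, Hsp90b1, Dnajc3, Pdia6, Calr and Creld2, of which 5 were called up) and in 29 of all 17706 (0.164%). It contains the shorter CCAAT motif. Parts of 3 windows are shown with the element in capitals, the start site following the last base; Pdia6 was chosen after its values and letters were seen. Hspa5 is chr2:34771960-34772089, plus strand, Pdia6 chr12:17266459-17266588, plus strand, and Creld2 chr15:88819516-88819645, plus strand.
Hspa5: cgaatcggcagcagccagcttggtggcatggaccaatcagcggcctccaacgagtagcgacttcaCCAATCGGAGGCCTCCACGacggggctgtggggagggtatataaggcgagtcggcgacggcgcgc
Pdia6: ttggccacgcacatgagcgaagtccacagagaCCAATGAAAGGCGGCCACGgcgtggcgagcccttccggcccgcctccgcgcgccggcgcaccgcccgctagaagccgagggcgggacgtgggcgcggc
Creld2: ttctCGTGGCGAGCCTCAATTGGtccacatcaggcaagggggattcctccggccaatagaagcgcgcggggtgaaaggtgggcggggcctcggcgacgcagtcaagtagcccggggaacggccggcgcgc
The element begins 65 bases before the start in Hspa5 and 98 in Pdia6, and in Creld2 it lies on the other strand, from 126 to 108 bases before the start. Pdia6, a disulfide isomerase, lay at 8.30, 8.47 and 9.06 in oil and at 8.24, 9.47 and 9.61 after CCl4, a change of 0.81 ± 0.16 (adjusted p = 0.000338). A match is a description of these letters and not of binding. Windows of further lists were read for the same motifs, and not all pairs of list and motif are printed. TGACNNNGC was in 5 of 17 windows of the NRF2 targets, 1 called up and 1 down, and in 12.4% of all windows. TTTGAA or TTCGAA was in 8 of 14 windows of the cyclin and mitosis list, 6 called up, and in 17.6% of all windows. The oil and CCl4 libraries overlapped for Pdia6, also without the library labelled KO_control 10 (log2 change 0.87).

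Lysosomal genes rose more widely: 19 of 26 rose and 1 fell (median 0.60). Ctss, a protease that processes antigen in macrophages, lay at 7.39, 7.95 and 10.11 in oil and at 9.20, 9.89 and 11.21 after CCl4, a change of 1.83 ± 0.26 (adjusted p = 2.99e-06). Legumain, Lgmn, changed by 1.67 ± 0.20 (adjusted p = 3.39e-07). Ctsk, a collagen-cleaving cathepsin, changed by 1.28 ± 0.24 (adjusted p = 0.00017). Ctsd, cathepsin D, lay at 8.25, 9.03 and 10.52 and 9.90, 10.19 and 11.28, a change of 1.14 ± 0.18 (adjusted p = 1.85e-05), and its 9 other oil libraries ended at 9.19, below all CCl4 libraries. Lamp2, a lysosomal membrane protein, was the gene that fell (-0.30 ± 0.09, adjusted p = 0.0147). Tfeb, the transcription factor of lysosome genes, lay at 3.84, 4.04 and 4.42 and 3.73, 4.00 and 4.23 and did not pass the test (change -0.12 ± 0.09, adjusted p = 0.359). The 8-letter motif TCACGTGA or TCACATGA, bound by factors of the Tfeb family and holding the E-box CACGTG in its first form only, was in 5 of 23 windows of the list (Ctsa, Ctsd, Gla, Grn and Atp6v1a, all called up) and in 2.06% of all windows. Ctsd, at chr7:142387828-142387957, minus strand, and Gla, at chrX:134601006-134601255, minus strand, are shown with the motif in capitals, Gla chosen after its values and letters were seen.
Ctsd: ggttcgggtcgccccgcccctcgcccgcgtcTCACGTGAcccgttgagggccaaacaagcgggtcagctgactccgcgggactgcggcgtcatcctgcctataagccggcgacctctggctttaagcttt
Gla: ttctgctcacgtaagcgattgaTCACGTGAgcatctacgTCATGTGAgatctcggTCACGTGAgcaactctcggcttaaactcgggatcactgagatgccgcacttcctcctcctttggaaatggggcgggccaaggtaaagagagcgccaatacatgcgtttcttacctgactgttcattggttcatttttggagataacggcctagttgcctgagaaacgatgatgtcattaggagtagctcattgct
Ctsd holds the motif once, from 99 to 92 bases before the start, and Gla at 3 places. Gla, the lysosomal alpha-galactosidase, lay at 4.26, 4.52 and 5.77 and 5.11, 5.51 and 6.12, a change of 0.84 ± 0.16 (adjusted p = 0.000161). In the absence of the library labelled KO_control 10, oil and CCl4 libraries lay apart for Ctss (log2 change 2.06), Ctsd (1.30) and Gla (0.96), and overlapped for Tfeb (-0.14). With the other 9 oil libraries alone the counts were 20 higher and 1 lower of 26 lysosomal genes (median 0.68). When each library was left out once the call was lost for Ctsa in 14 fits (adjusted p up to 0.133, without KO_CCl4 5). With the 3 oil libraries that express Y-linked genes left out, Lamp2 was not called, with a change of -0.29 (adjusted p = 0.0506).

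Replication genes rose widely. Of 20 genes of the MCM helicase, origin licensing and DNA synthesis 16 rose (median 0.73), and of 20 cyclin and mitosis genes 16 rose (median 0.55). Mcm2, a subunit of the replicative helicase, lay at 3.56, 4.13 and 5.81 in oil and at 4.60, 6.06 and 6.43 after CCl4, a change of 1.65 ± 0.23 (adjusted p = 2.69e-06). Mcm3 and Mcm4 changed by 1.52 ± 0.24 (adjusted p = 1.34e-05) and 1.47 ± 0.22 (adjusted p = 5.37e-06), and Rrm1, a subunit of ribonucleotide reductase, by 1.02 ± 0.14 (adjusted p = 1.45e-06). KO_CCl4 5 was the lowest CCl4 library for Mcm2, Mcm3 and Mcm4, still above the 9 oil libraries other than KO_control 10. Among the mitotic genes, Top2a lay at 3.37, 3.51 and 4.60 and 3.97, 5.10 and 5.80, a change of 1.34 ± 0.21 (adjusted p = 1.04e-05), and Mki67, the marker of cycling cells, at 4.09, 4.44 and 5.57 and 4.76, 5.94 and 6.88, a change of 1.27 ± 0.24 (adjusted p = 0.000141). Ccnd2, Ccna2, Kif11 and Cdk1 changed by 1.36 ± 0.25 (adjusted p = 0.000141), 0.86 ± 0.21 (adjusted p = 0.00207), 0.78 ± 0.17 (adjusted p = 0.000797) and 0.77 ± 0.16 (adjusted p = 0.000373). Mki67 overlapped between the groups even without the library labelled KO_control 10, the lowest CCl4 library lying at 4.76 and the highest of the 9 oil libraries at 5.06. Tyms, Fen1, Cdc20, Ccnb2 and Ccne2 did not pass the test, with changes between 0.09 and 0.48. Nor did Mcm10, Orc1 and Ccnd1, with changes of -0.45, -0.06 and 0.38 (adjusted p = 0.122, 0.687 and 0.44). With the library labelled KO_control 10 left out, the groups did not overlap for Mcm2 (log2 change 1.82) and Top2a (1.44), but overlapped for Mki67 (1.38). Set against the 9 other oil libraries, the counts were 17 higher of 20 licensing genes (median 0.78) and 16 higher of 20 cyclin and mitosis genes (median 0.57).

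The E2F motif, searched as TTTCCCGC, TTTCGCGC, TTTGCCGC or TTTGGCGC, was in 5 of 17 windows of the licensing list (Mcm5, Mcm6, Mcm7, Orc1 and Cdc6, of which 4 were called up) and in 2.73% of all windows. Mcm6, at chr1:128359706-128359835, minus strand, Mcm5, at chr8:75109339-75109508, plus strand, and Cdc6, at chr11:98908001-98908150, plus strand, are shown with it in capitals, Cdc6 chosen after its values and letters were seen.
Mcm6: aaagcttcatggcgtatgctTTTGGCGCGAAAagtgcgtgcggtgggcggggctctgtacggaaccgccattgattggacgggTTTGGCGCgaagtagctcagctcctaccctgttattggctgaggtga
Mcm5: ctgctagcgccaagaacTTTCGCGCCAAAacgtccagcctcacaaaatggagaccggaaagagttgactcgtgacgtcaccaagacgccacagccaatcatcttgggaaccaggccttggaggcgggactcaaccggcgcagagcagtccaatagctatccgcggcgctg
Cdc6: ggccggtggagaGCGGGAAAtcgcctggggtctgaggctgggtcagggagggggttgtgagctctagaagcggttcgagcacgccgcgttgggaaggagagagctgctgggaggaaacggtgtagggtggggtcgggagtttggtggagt
Mcm6 has 3 matches, the first pair overlapping on opposite strands from 110 to 99 bases before the start, and Mcm5 an overlapping pair from 153 to 142. The log2 changes of Mcm6, Mcm5 and Cdc6 were 2.00 ± 0.24 (adjusted p = 3.39e-07), 1.81 ± 0.25 (adjusted p = 1.9e-06) and 0.71 ± 0.17 (adjusted p = 0.00215).

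**Figure D3:**
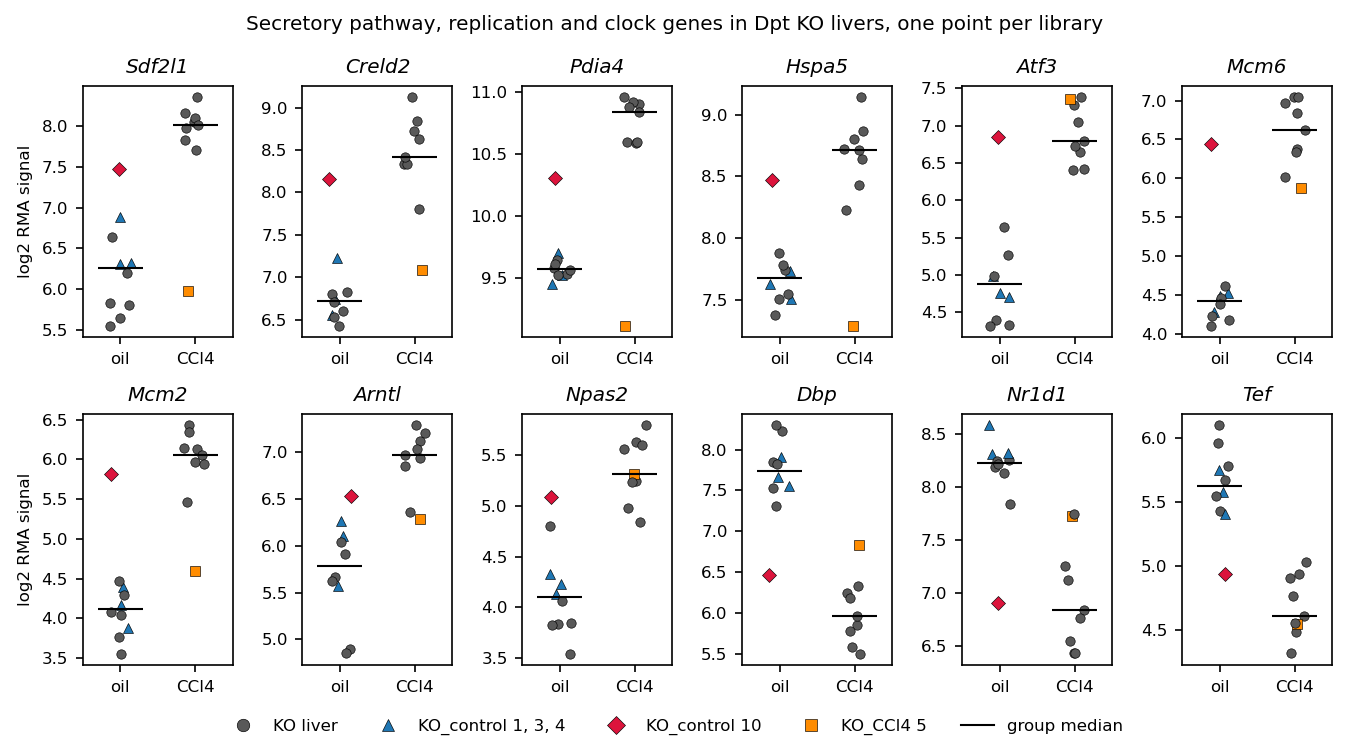
Log2 signal of 12 genes of the secretory pathway, stress, replication and the clock in each Dpt KO library, marked as in the plot of the largest changes. KO_CCl4 5 lies at 9.11 for Pdia4, below all oil libraries, and at 7.36 for Atf3, among the other CCl4 libraries.

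The hepatocyte lists differed in how many members fell, from 0 of 9 defining hepatocyte genes to 15 of 20 lipogenesis genes, and many of these values lean on KO_CCl4 5, the library low in hepatocyte genes. Of 20 pericentral genes 14 fell and 1 rose (median -1.02). Cyp1a2, a P450 of drug oxidation, lay at 7.53, 10.30 and 10.49 in oil and at 4.73, 8.48 and 9.94 after CCl4, a change of -1.77 ± 0.52 (adjusted p = 0.0113). The 9 oil libraries other than that labelled KO_control 10 lay within 10.23 to 10.49, above every CCl4 library. Lhpp, a phosphatase, changed by -1.71 ± 0.24 (adjusted p = 3.42e-06). Cyp2e1, the enzyme that activates CCl4, lay at 9.65, 11.69 and 11.80 and 9.93, 11.01 and 11.25, and did not pass the test with all libraries (change -0.60 ± 0.23, adjusted p = 0.0513). Without the library labelled KO_control 10, at 9.65, the change was -0.80 (adjusted p = 0.000739) and the groups did not overlap. KO_CCl4 5 was not low for this gene, at 11.11. Gulo and Rnf43 did not pass the test (-0.79 and -0.54). The gene that rose was Slc1a4, a neutral amino acid carrier (0.98 ± 0.23, adjusted p = 0.00155). Once the library labelled KO_control 10 was left out, the groups lay apart for Cyp1a2 (log2 change -2.05) and Cyp2e1 (-0.80). Counted without the library labelled KO_control 10, there were 1 higher and 15 lower of 20 pericentral genes (median -1.17). Leaving out KO_control 1, 3 and 4, Cyp1a2 was not called, with a change of -1.66 (adjusted p = 0.0507).

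Of 15 periportal genes, of urea and amino acid metabolism, 6 fell and 9 did not pass the test (median -0.90; -0.47 and 4 falls without KO_CCl4 5). Cyp2f2 lay at 8.75, 9.84 and 10.39 in oil and at 7.07, 8.93 and 9.44 after CCl4, a change of -1.06 ± 0.25 (adjusted p = 0.00143), and Sds, serine dehydratase, changed by -1.59 ± 0.44 (adjusted p = 0.00685). Asl of the urea cycle changed by -1.12 ± 0.32 (adjusted p = 0.0103). Otc and Hal, of the urea cycle and of histidine breakdown, were called with all libraries (-1.46 ± 0.48, adjusted p = 0.0225 and -1.45 ± 0.47, adjusted p = 0.0224) but not without KO_CCl4 5 (-0.95 and -0.97, adjusted p = 0.0528 and 0.0562). Arg1, arginase, lay at 10.01, 10.23 and 10.31 and 8.59, 9.87 and 10.19 and did not pass the test (change -0.40 ± 0.16, adjusted p = 0.07). Of 22 genes of amino acid breakdown 9 fell and 1 rose; without the library labelled KO_control 10 14 fell, and without KO_CCl4 5 only 5. The gene that rose was Bckdk, the kinase that shuts down branched-chain amino acid breakdown (0.53 ± 0.13, adjusted p = 0.00339). Prodh, proline dehydrogenase, lay at 5.80, 7.20 and 7.61 and 4.74, 5.70 and 6.43, a change of -1.48 ± 0.22 (adjusted p = 5.67e-06). Haao, of tryptophan breakdown, and Gnmt, which uses up methyl groups, changed by -1.69 ± 0.38 (adjusted p = 0.00113) and -1.64 ± 0.47 (adjusted p = 0.00991). Hao1, Kmo and Fah fell with all libraries but lost their calls without KO_CCl4 5 (adjusted p 0.126, 0.117 and 0.0533). Tdo2, Hpd and Cth, not called with all libraries, were called without the library labelled KO_control 10 (-1.21, -1.19 and -1.23). Leaving out the library labelled KO_control 10, the oil and CCl4 libraries did not overlap for Cyp2f2 (log2 change -1.18) and Prodh (-1.62), and overlapped for Arg1 (-0.41). Against the remaining 9 oil libraries there were 7 lower of 15 periportal genes (median -0.95) and 1 higher and 14 lower of 22 amino acid genes (median -0.97). On centred arrays the counts were 1 higher and 14 lower of 22 amino acid genes (median -0.98). Leaving out one of the 19 libraries at a time the call was lost for Hao1 in 11 fits (adjusted p up to 0.126, without KO_CCl4 5) and Kmo in 14 fits (adjusted p up to 0.117, without KO_CCl4 5). In the fit without KO_control 1, 3 and 4, Sds, Otc, Hal, Hao1, Kmo and Fah were not called, with changes of -1.35, -1.39, -1.32, -1.09, -0.74 and -0.79 (adjusted p = 0.0532, 0.0761, 0.0881, 0.181, 0.154 and 0.0811).

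Of 19 genes of bile acid synthesis 7 fell (median -0.66; -0.40 without KO_CCl4 5). Cyp27a1, which opens the alternative pathway, lay at 7.49, 9.82 and 10.09 in oil and at 6.76, 8.12 and 8.78 after CCl4, a change of -1.51 ± 0.29 (adjusted p = 0.000168). Cyp8b1, which sets the share of cholic acid, lay at 5.56, 8.04 and 8.68 and 4.42, 6.30 and 7.39, a change of -1.51 ± 0.39 (adjusted p = 0.00396). Cyp7a1, the rate-limiting enzyme of the classical pathway, lay at 7.28, 9.47 and 9.96 and 5.16, 8.47 and 9.48 and did not pass the test (-1.29 ± 0.51, adjusted p = 0.0636); without the library labelled KO_control 10 it did (-1.51, adjusted p = 0.0232). Akr1d1 and Baat, a reductase and the conjugating enzyme, changed by -1.64 ± 0.46 (adjusted p = 0.00803) and -1.50 ± 0.47 (adjusted p = 0.0175), and Slc27a5 was called (-1.54 ± 0.52, adjusted p = 0.0286) only with KO_CCl4 5 (adjusted p = 0.0698 without it). Of 18 hepatic transporters 9 fell and 1 rose, and without KO_CCl4 5 3 fell (median -0.91, and -0.57 without it). Slc10a1, the bile acid uptake carrier NTCP, lay at 9.32, 10.55 and 10.90 and 4.93, 9.48 and 10.08, a change of -1.49 ± 0.48 (adjusted p = 0.0205), and -0.99 without KO_CCl4 5 (adjusted p = 0.0477). The export pump Abcb11 and the uptake carriers Slco1b2 and Slc22a7 lost their calls without KO_CCl4 5 (adjusted p = 0.0521, 0.0612 and 0.0524). The riser was Abcc4, which exports bile acids back to the blood. When the library labelled KO_control 10 was set aside, the groups lay apart for Cyp27a1 (log2 change -1.74) and Slc10a1 (-1.62), but overlapped for Cyp8b1 (-1.76) and Cyp7a1 (-1.51). The same counts without the library labelled KO_control 10 were 10 lower of 19 bile acid genes (median -0.74) and 2 higher and 9 lower of 18 transporters (median -0.98). With arrays centred on their medians there were 11 lower of 19 bile acid genes (median -0.75). Of the transporters, those called were 2 higher and 9 lower without KO_control 7. Once KO_control 1, 3 and 4 were set aside, Baat, Slc27a5, Slc10a1, Abcb11 and Slco1b2 were not called, with changes of -1.39, -1.46, -1.49, -1.66 and -1.60 (adjusted p = 0.0694, 0.0914, 0.0582, 0.0673 and 0.0587).

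Of 18 genes of growth hormone and insulin-like growth factor signalling 7 fell (median -0.65). Ghr, the growth hormone receptor, lay at 7.30, 8.77 and 9.04 in oil and at 7.13, 7.34 and 8.23 after CCl4, a change of -1.10 ± 0.20 (adjusted p = 6.92e-05), its lowest oil library being that labelled KO_control 10. Stat5b, the signal transducer, changed by -0.42 ± 0.12 (adjusted p = 0.00716), and Igfals, which carries IGF1 in the blood, by -0.97 ± 0.25 (adjusted p = 0.00351). Igf1 itself lay at 8.90, 9.16 and 9.49 and 8.12, 8.85 and 9.14 and did not pass the test (-0.40 ± 0.16, adjusted p = 0.071). Genes that differ between male and female mouse liver under growth hormone were high or low in the oil libraries with Y-linked expression: Hsd3b5, a steroid dehydrogenase, lay at 7.84 to 8.30 in those 3 and at 2.21 to 6.82 in 6 others. Its change of -2.86 ± 0.75 (adjusted p = 0.00474) became -1.79 without all 5 libraries that stand apart (adjusted p = 0.0662). Cux2, a repressor found in female mouse liver, changed by -0.96 ± 0.30 (adjusted p = 0.0176), and became -1.51 without the 5 (adjusted p = 0.00046). Without the library labelled KO_control 10 the oil and CCl4 ranges were separate for Ghr (log2 change -1.25), while they overlapped for Igf1 (-0.42). Leaving the library labelled KO_control 10 out gave 9 lower of 18 growth hormone genes (median -0.72). Without KO_CCl4 5 the values were 1 higher and 8 lower of 18 growth hormone genes (median -0.45). Centring the arrays gave 11 lower of 18 growth hormone genes (median -0.73). Without KO_control 1, 3 and 4, Hsd3b5 was not called, with a change of -1.55 (adjusted p = 0.104).

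Many drug-metabolising enzymes fell. Of 24 Cyp2 genes 13 fell (median -1.05), and of 29 conjugating enzymes 17 fell (median -0.74). Cyp2c54 lay at 6.61, 9.20 and 9.57 in oil and at 3.81, 7.28 and 8.06 after CCl4, a change of -2.10 ± 0.53 (adjusted p = 0.0032), and Cyp2c37, Cyp2c50 and Cyp2c40 changed by -2.05 ± 0.63 (adjusted p = 0.015), -1.72 ± 0.50 (adjusted p = 0.0101) and -1.88 ± 0.51 (adjusted p = 0.00557). Cyp2d9 changed by -2.47 ± 0.70 (adjusted p = 0.00873), and without the 5 libraries by -1.39 (adjusted p = 0.104); its oil libraries with Y-linked expression lay at 9.64 to 10.15. Among the conjugating enzymes, Inmt, a methyltransferase, lay at 8.02, 9.44 and 9.81 and 6.47, 7.74 and 8.41, a change of -1.78 ± 0.26 (adjusted p = 3.85e-06). The glucuronosyltransferases Ugt2b1, Ugt2a3 and Ugt3a1 changed by -2.15 ± 0.54 (adjusted p = 0.00329), -1.89 ± 0.44 (adjusted p = 0.00141) and -1.84 ± 0.39 (adjusted p = 0.000568), whereas Ugt1a1, which conjugates bilirubin, lay at 7.66, 7.98 and 8.69 and 5.12, 7.59 and 8.17 and did not pass the test (change -0.74 ± 0.30, adjusted p = 0.0673). Of 21 alcohol and aldehyde dehydrogenases 10 fell and 3 rose (median -0.59, and -0.38 without KO_CCl4 5). Aldh1l1 of folate metabolism fell (-1.24 ± 0.31, adjusted p = 0.00297), while Aldh1a2, a retinoic acid synthase of mesenchymal and mesothelial cells, and Aldh3b1 rose (1.13 ± 0.30, adjusted p = 0.00595 and 0.94 ± 0.12, adjusted p = 1.35e-06), as did Aldh1l2 of mitochondrial folate metabolism (0.78 ± 0.16, adjusted p = 0.000574). Adh4 lost its call without KO_CCl4 5 (adjusted p = 0.127). In the absence of the library labelled KO_control 10, oil and CCl4 libraries lay apart for Cyp2c54 (log2 change -2.35) and Inmt (-1.94), and overlapped for Ugt1a1 (-0.77). With the other 9 oil libraries alone the counts were 15 lower of 24 Cyp2 genes (median -1.19), 18 lower of 29 conjugating enzymes (median -0.81) and 3 higher and 12 lower of 21 dehydrogenases (median -0.68). With single libraries left out in turn the call was lost for Adh4 in 14 fits (adjusted p up to 0.127, without KO_CCl4 5). With the 3 oil libraries that express Y-linked genes left out, Cyp2d9 and Adh4 were not called, with changes of -1.37 and -1.18 (adjusted p = 0.151 and 0.156).

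Of 20 lipogenesis genes 15 fell (median -0.67). Mlxipl, the glucose sensor ChREBP, lay at 7.41, 8.80 and 9.14 in oil and at 6.14, 7.32 and 7.85 after CCl4, a change of -1.45 ± 0.23 (adjusted p = 1.44e-05). Thrsp, its target, lay at 5.98, 8.56 and 9.08 and 5.71, 6.35 and 8.58, a change of -1.68 ± 0.37 (adjusted p = 0.000771), the highest CCl4 library being KO_CCl4 5; without that library the change was -1.93. Lpin1 and Pklr changed by -1.28 ± 0.36 (adjusted p = 0.00878) and -1.35 ± 0.39 (adjusted p = 0.00988), while Fads2, Elovl5 and Pnpla3 did not pass the test (-0.69, -0.36 and -0.36). Of 21 genes of fatty acid oxidation and PPAR alpha 6 fell and 2 rose (median -0.25): Ppara changed by -1.07 ± 0.30 (adjusted p = 0.00855), Acot1 by -1.14 ± 0.35 (adjusted p = 0.0141) and Acot2, a closely related thioesterase, by 1.11 ± 0.33 (adjusted p = 0.0113); the other gene that rose was Pdk4. The share of this list that rose was below the 13.4% of all genes, and 9.89% of all genes fell. Of 17 lipid droplet genes 5 fell and 1 rose, the share that rose again being below that of all genes. The fallers Ces1d and Ces1g, lipid-cleaving carboxylesterases, changed by -1.73 ± 0.23 (adjusted p = 1.44e-06) and -1.78 ± 0.52 (adjusted p = 0.0108), and Fitm1, of droplet budding, by -1.28 ± 0.25 (adjusted p = 0.000262). The riser Cidec, which fuses droplets and is abundant in adipocytes, lay at 3.74, 3.96 and 6.27 and 4.09, 4.93 and 10.12, with KO_CCl4 5 at the top; without it the change was 0.90 (adjusted p = 0.138). Of 20 cholesterol genes 8 fell, and 4 without KO_CCl4 5. Tm7sf2 and Idi1 of cholesterol synthesis changed by -1.04 ± 0.27 (adjusted p = 0.00422) and -0.82 ± 0.20 (adjusted p = 0.00258), and Insig1 and Msmo1 lost their calls without KO_CCl4 5 (adjusted p = 0.0572 and 0.0752). With the library labelled KO_control 10 left out, the groups did not overlap for Mlxipl (log2 change -1.60), but overlapped for Thrsp (-1.93) and Cidec (1.68). Set against the 9 other oil libraries, the counts were 15 lower of 20 lipogenesis genes (median -0.74), 2 higher and 7 lower of 21 fatty acid oxidation genes (median -0.27), 2 higher and 5 lower of 17 lipid droplet genes (median -0.26) and 10 lower of 20 cholesterol genes (median -0.62). Leaving out KO_CCl4 5 gave 2 higher and 4 lower of 21 fatty acid oxidation genes (median -0.10). On centred arrays the counts were 2 higher and 10 lower of 21 fatty acid oxidation genes (median -0.34). Over the 19 fits that leave out one library the call was lost for Cidec in 13 fits (adjusted p up to 0.138, without KO_CCl4 5), Insig1 in 2 fits (adjusted p up to 0.0572, without KO_CCl4 5) and Msmo1 in 3 fits (adjusted p up to 0.0752, without KO_CCl4 5). Leaving out KO_control 1, 3 and 4, Acot2 and Cidec were not called, with changes of 0.69 and 1.43 (adjusted p = 0.151 and 0.117).

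Secreted plasma proteins showed few calls. With all libraries, coagulation and apolipoprotein genes were called in shares below the 13.4% of all genes that rose and the 9.89% that fell. An unadjusted limma p below 0.05 was reached by 11 of 28 coagulation and complement genes and 4 of 18 apolipoprotein genes. Over all 23152 genes 8074 reached it. Of 28 coagulation and complement genes 2 fell and 1 rose; without the library labelled KO_control 10 6 fell, and the median of -0.69 was -0.23 without KO_CCl4 5. F7, coagulation factor VII, lay at 7.87, 8.90 and 9.10 in oil and at 7.44, 8.04 and 8.35 after CCl4, a change of -0.84 ± 0.19 (adjusted p = 0.00114). C3 rose by 0.17 ± 0.05 (adjusted p = 0.00962) from a high level, and F13b lost its call without KO_CCl4 5 (adjusted p = 0.123). Of 18 apolipoprotein genes 1 fell, Lipc, hepatic lipase (-1.23 ± 0.38, adjusted p = 0.017), and the median of -0.60 was -0.22 without KO_CCl4 5. Of 21 iron genes 3 rose, a share close to the 13.4% of all genes: the transferrin receptor Tfrc changed by 0.83 ± 0.25 (adjusted p = 0.0117) and the ferritin heavy chain Fth1 by 0.28 ± 0.07 (adjusted p = 0.00216), while Hamp2, a hepcidin gene, lay at 3.46, 6.31 and 6.74 and 2.73, 5.16 and 5.64 and passed the test only without the library labelled KO_control 10 (-1.24, adjusted p = 0.0057). Steap4, a metal reductase, was called (0.42 ± 0.15, adjusted p = 0.032) but not without KO_CCl4 3 (0.30, adjusted p = 0.094). Once the library labelled KO_control 10 was left out, the groups lay apart for F7 (log2 change -0.95), while they overlapped for Hamp2 (-1.24). Counted without the library labelled KO_control 10, there were 1 higher and 6 lower of 28 coagulation genes (median -0.73), 1 lower of 18 apolipoprotein genes (median -0.65) and 4 higher and 1 lower of 21 iron genes (median 0.08). With KO_CCl4 5 left out the counts were 1 higher and 1 lower of 28 coagulation genes (median -0.23), 1 higher and 1 lower of 18 apolipoprotein genes (median -0.22) and 4 higher of 21 iron genes (median 0.19). With arrays centred on their medians there were 5 lower of 28 coagulation genes (median -0.78), 3 lower of 18 apolipoprotein genes (median -0.68) and 2 higher and 1 lower of 21 iron genes (median -0.04). Of the apolipoprotein genes, those called were 2 lower without KO_CCl4 9. Dropping each of the 19 libraries in turn ended the call of F13b in 12 fits (adjusted p up to 0.123, without KO_CCl4 5) and Steap4 in 6 fits (adjusted p up to 0.094, without KO_CCl4 3). In the fit without KO_control 1, 3 and 4, C3, F13b, Tfrc and Steap4 were not called, with changes of 0.13, -1.30, 0.59 and 0.41 (adjusted p = 0.09, 0.0932, 0.12 and 0.0849).

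Of 19 hepatocyte transcription factors 8 fell (median -0.72). Foxa1, a pioneer factor, lay at 5.98, 6.80 and 7.34 in oil and at 2.89, 5.89 and 6.34 after CCl4, a change of -1.14 ± 0.30 (adjusted p = 0.00557). Cebpa lay at 7.34, 8.76 and 9.19 and 7.33, 7.70 and 7.91, a change of -0.87 ± 0.23 (adjusted p = 0.00586), with KO_CCl4 5 at 7.85, inside its group. Thrb, a thyroid hormone receptor, and Prox1 changed by -0.71 ± 0.15 (adjusted p = 0.00076) and -1.10 ± 0.35 (adjusted p = 0.0215). Nr1h4, the bile acid receptor FXR, lost its call without KO_CCl4 5 (-0.70, adjusted p = 0.0632). Hnf4a, the central factor of hepatocyte identity, lay at 8.08, 8.51 and 8.64 and 4.55, 7.99 and 8.12 and did not pass the test (change -0.89 ± 0.35, adjusted p = 0.0564); the 8 CCl4 libraries other than KO_CCl4 5 lay between 7.49 and 8.12. Leaving out the library labelled KO_control 10, the oil and CCl4 libraries did not overlap for Foxa1 (log2 change -1.22) and Hnf4a (-0.94), and overlapped for Cebpa (-0.95). Against the remaining 9 oil libraries there were 11 lower of 19 transcription factors (median -0.80). Without KO_CCl4 5 the values were 1 higher and 6 lower of 19 transcription factors (median -0.51). Once KO_control 1, 3 and 4 were set aside, Cebpa, Prox1 and Nr1h4 were not called, with changes of -0.68, -1.04 and -1.04 (adjusted p = 0.0649, 0.0702 and 0.0695).

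Enzymes of glucose use moved in both directions. Of 20 genes of glycolysis and gluconeogenesis 8 rose and 1 fell (median 0.25). Pkm, the pyruvate kinase of non-hepatocyte and dividing cells, lay at 5.38, 5.55 and 7.92 in oil and at 6.60, 7.52 and 8.29 after CCl4, a change of 1.71 ± 0.26 (adjusted p = 1.07e-05), and Pklr, the liver pyruvate kinase, lay at 8.08, 9.12 and 9.64 and 4.71, 8.06 and 8.42, a change of -1.35 ± 0.39 (adjusted p = 0.00988). Hk3 and Pfkp, isoforms of blood cells and other tissues, changed by 0.75 ± 0.11 (adjusted p = 3.11e-06) and 1.01 ± 0.22 (adjusted p = 0.000662). Hk2 was called (0.81 ± 0.30, adjusted p = 0.0429) but not without KO_CCl4 5 (adjusted p = 0.0836). The liver glucose transporter Slc2a2 and Pfkfb1 did not pass the test (-0.98 and -0.36). Of 28 respiratory chain genes 18 fell, each by little (median -0.34): Sdhd of complex II lay at 7.92, 8.39 and 8.50 and 7.05, 7.84 and 7.94, a change of -0.59 ± 0.09 (adjusted p = 9.3e-06), Cyc1 of complex III changed by -0.60 ± 0.16 (adjusted p = 0.00451) and Ndufs1 of complex I by -0.49 ± 0.10 (adjusted p = 0.000535). Centred on the array medians, 21 of the 28 fell, with a median of -0.43. When the library labelled KO_control 10 was set aside, the groups lay apart for Pkm (log2 change 1.94) and Pklr (-1.46), but overlapped for Sdhd (-0.62). The same counts without the library labelled KO_control 10 were 8 higher and 2 lower of 20 glucose genes (median 0.30) and 18 lower of 28 respiratory chain genes (median -0.37). Leaving out KO_CCl4 5 gave 7 higher and 1 lower of 20 glucose genes (median 0.09). Centring the arrays gave 7 higher and 3 lower of 20 glucose genes (median 0.17). Of the glucose genes, those called were 6 higher and 2 lower without KO_control 7. When each library was left out once the call was lost for Hk2 in 15 fits (adjusted p up to 0.0836, without KO_CCl4 5). Without KO_control 1, 3 and 4, Hk2 and Cyc1 were not called, with changes of 0.77 and -0.47 (adjusted p = 0.117 and 0.0523).

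Of 18 clock genes 2 rose, Arntl and Npas2, and 10 fell (median -0.54). Arntl, the gene of the activator BMAL1, lay at 4.85, 5.79 and 6.53 in oil and at 6.29, 6.97 and 7.29 after CCl4, a change of 1.15 ± 0.23 (adjusted p = 0.000278). Npas2, which can pair with BMAL1, changed by 1.19 ± 0.22 (adjusted p = 0.00011). Nr1d1, the repressor REV-ERB alpha that acts on Arntl, changed by -1.11 ± 0.17 (adjusted p = 1.18e-05). Dbp, an output factor driven by the activators, lay at 6.46, 7.74 and 8.30 and 5.50, 5.96 and 6.83, a change of -1.64 ± 0.22 (adjusted p = 2.03e-06), and the related factor Tef changed by -0.93 ± 0.14 (adjusted p = 4.52e-06). The library labelled KO_control 10 lay on the CCl4 side in all 5, and KO_CCl4 5 was the lowest CCl4 library for Arntl and the highest for Dbp. Rora, Nfil3 and Bhlhe41 did not pass the test, with changes of -0.12, 0.23 and -0.09. The E-box CACGTG was in 5 of the 16 windows of the list, 2 of them of called genes, against 7.83% of all windows. Without the library labelled KO_control 10 the oil and CCl4 ranges were separate for Arntl (log2 change 1.24) and Dbp (-1.77). Leaving the library labelled KO_control 10 out gave 2 higher and 10 lower of 18 clock genes (median -0.59).

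Among markers of other cells of the liver and of neighbouring tissue, the neutrophil, mesothelial and vascular endothelial lists held most of the calls. Of 13 neutrophil genes 10 rose, with mean levels of 3.36 to 4.40 in oil and 3.79 to 5.53 after CCl4, highest in KO_CCl4 3; Retnlg and Mmp8 changed by 1.31 ± 0.28 (adjusted p = 0.000631) and 1.04 ± 0.19 (adjusted p = 8.7e-05), while Ly6g, a defining marker, lay at 2.28, 2.79 and 3.14 and 2.34, 2.93 and 3.72 and did not pass the test (change 0.15 ± 0.13, adjusted p = 0.464). Of 7 mesothelial genes 6 rose, with means of 3.88 to 5.80 and 4.39 to 6.95, and Wt1, a transcription factor of mesothelium and stellate precursors, lay at 3.57, 4.25 and 5.54 and 4.93, 5.08 and 7.07, a change of 1.01 ± 0.24 (adjusted p = 0.00213). Msln and Lrrn4 lost their calls without KO_CCl4 5 (adjusted p = 0.127 and 0.0666), which left 4 of the 7. Of 12 vascular endothelial genes 8 rose, among them Ednrb (1.07 ± 0.20, adjusted p = 9.84e-05), Plvap (0.60 ± 0.13, adjusted p = 0.000822) and Cdh5 (0.61 ± 0.12, adjusted p = 0.000166), with mean levels of 5.06 to 6.07 in oil and 5.63 to 7.18 after CCl4, highest in KO_CCl4 5, without which 6 rose and 1 fell. Of 14 sinusoidal endothelial genes 1 rose, Stab1 (0.51 ± 0.14, adjusted p = 0.00628), and 1 fell, Dnase1l3 (-0.66 ± 0.25, adjusted p = 0.0499), which lost its call without KO_control 9 (adjusted p = 0.0765). Both sinusoidal shares were below those of all genes, 13.4% higher and 9.89% lower. Of 14 T and NK cell genes limma called 0 (1 at an unadjusted p below 0.05), Cd3e lying at 4.14, 4.56 and 4.75 and 4.51, 4.89 and 5.89 (change 0.58 ± 0.23, adjusted p = 0.0608). Limma also called 0 of 12 exocrine pancreas, 0 of 10 skeletal muscle, 0 of 9 defining hepatocyte, 0 of 3 erythroid and 0 of 3 Y-linked genes (0, 0, 3, 0 and 2 of them at an unadjusted p below 0.05), and of 8 adipocyte genes 1 rose and 1 fell, Cidec and Car3, the first not without KO_CCl4 5. Both adipocyte shares were close to those of all genes. The part of the cells of these lists in the changes above was not tested. In the absence of the library labelled KO_control 10, oil and CCl4 libraries lay apart for Wt1 (log2 change 1.15), and overlapped for Ly6g (0.14) and Cd3e (0.59). With KO_control 10 left out the marker counts were 11 higher of 13 neutrophil genes, 6 higher of 7 mesothelial genes, 8 higher of 12 vascular genes, 1 higher and 1 lower of 14 sinusoidal genes, 1 higher of 3 erythroid genes, 1 lower of 9 defining hepatocyte genes and 1 higher and 1 lower of 8 adipocyte genes, and again 0 called of the T and NK cell, skeletal muscle, exocrine pancreas and Y-linked genes. On centred arrays the marker lists whose counts moved gave 8 higher and 1 lower of 12 vascular genes, 1 higher and 2 lower of 14 sinusoidal genes, 1 lower of 14 T and NK cell genes and 1 lower of 9 defining hepatocyte genes. Of the T and NK cell genes, those called were 1 higher without KO_CCl4 8. Leaving out one of the 19 libraries at a time the call was lost for Msln in 16 fits (adjusted p up to 0.127, without KO_CCl4 5) and Dnase1l3 in 12 fits (adjusted p up to 0.0765, without KO_control 9). With the 3 oil libraries that express Y-linked genes left out, Msln, Lrrn4, Dnase1l3 and Cidec were not called, with changes of 0.62, 1.04, -0.68 and 1.43 (adjusted p = 0.145, 0.0919, 0.0981 and 0.117).

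**Figure D4:**
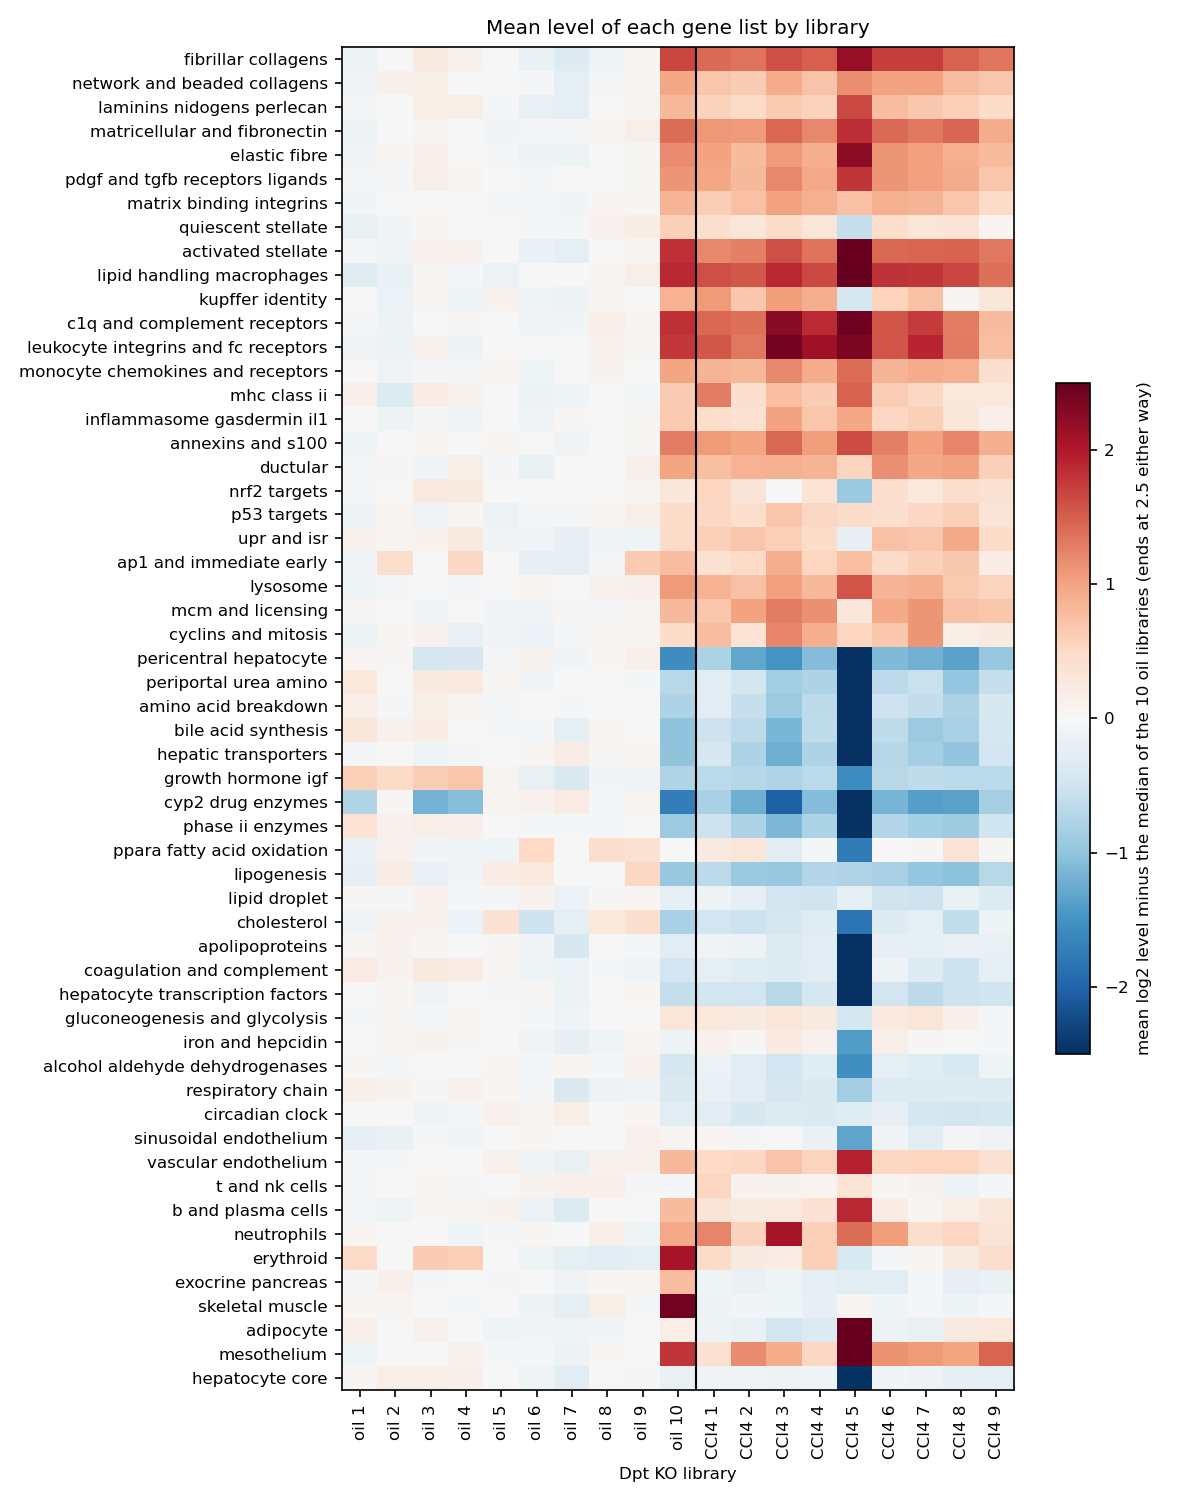
Mean log2 level of each gene list in each Dpt KO library, less the median of the 10 oil libraries, on a colour scale that ends at 2.5 either way. The library labelled KO_control 10 resembles the CCl4 libraries in most lists, and KO_CCl4 5 has the lowest hepatocyte and the highest adipocyte, mesothelial and B cell levels of its group.

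The response was set beside that of the wild type, which shares no control sample with it. In wild-type livers 5666 genes were called (24.5%), 3371 of them also in KO, all 3371 in the same direction. Across 23152 genes the changes correlated at r = 0.86, a description, since genes are not independent replicates and all livers share the platform and the scaling. The interaction of genotype and CCl4 gave 0 called genes (limma; lowest adjusted p 0.848; 1356 at an unadjusted p below 0.05), so the 2018 genes called in KO and not in wild type are not shown to differ. Side by side, the list medians in KO and wild type were 1.50 and 1.43 for activated stellate genes, 0.65 and 0.58 for MHC class II, 0.73 and 0.46 for licensing genes and -1.02 and -1.09 for pericentral genes. Lists that lay further apart included leukocyte integrins and Fc receptors at 1.49 and 0.89 and C1q and complement receptors at 1.30 and 0.68. Neutrophil genes lay at 0.81 and 0.28 and Kupffer genes at 0.35 and 0.04. The widest gaps were those of exocrine pancreas genes, at -0.26 and 1.44, and skeletal muscle genes, at -0.34 and 1.39. The medians set side by side here include the library labelled KO_control 10 and WT_CCl4 1. Without KO_control 10 the KO medians were -0.18 for pancreas and -0.10 for muscle genes. In wild type, limma called 1 of 12 pancreas genes and 2 of 10 muscle genes, all higher. These differences of medians have no test here beyond the interaction of single genes. The library labelled WT_CCl4 1, low in Dpt, lay within the wild-type oil range for Slco1a1, at 7.90 against 7.70 to 9.73, and for Slc1a2, at 7.07 against 6.97 to 7.65. For Gpnmb it lay between the wild-type groups, at 6.64, above the oil libraries ending at 4.05 and below the other CCl4 libraries from 7.76. An alternative chosen after seeing the data left out WT_CCl4 1 and the library labelled KO_control 10, both for their Dpt levels. Limma then called 1 of 23152 genes in the interaction (0.00432%): Dpt itself, at -2.52 ± 0.30 (adjusted p = 2.79e-05). Since the libraries were chosen by Dpt, its call is not separate evidence of a difference. The next gene, Fcgr1, differed by 1.17, higher in KO, with adjusted p = 0.184.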

How the data were processed

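Livers were profiled on Affymetrix MoGene 2.0 ST arrays, and the authors deposited log2 signals per probe set that were made with RMA, per the submitters' processing notes; its version is not stated, and the build is not given in the sources used here. A second table with 36 columns named by array number was not used, since its columns could not be tied to samples. Of 269479 probe sets, 233753 carry 1 gene symbol, 5139 several and 30587 none in the platform annotation; 2189 symbols were updated through RefSeq. A gene's value is the mean of its single-symbol probe sets (23152 genes, median 8 probe sets each). Depth does not apply to arrays, and their number limits the precision. Array medians of the KO libraries lay between 4.11 and 4.30.

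One limma model (version 3.58.1, R 4.3.3) gave each group its own mean over all 36 arrays, with eBayes and Benjamini-Hochberg adjustment over 23152 genes; groups were taken from the titles, and the contrasts were CCl4 minus oil in KO, the same in wild type, and their difference. On simulated data for the KO contrast, with 23152 genes, 74% of 1.5-fold and 95% of 2-fold changes were recovered, and 4% of calls were false. Each gene was drawn with independent normal noise around the same mean in all groups, with 100 genes changed at each fold. The simulation held no library that stands apart and no correlation between genes. Its 4% therefore does not measure the false share of the real calls. Named genes are Dpt, the 15 largest rises and falls, the 5 rises and falls of largest moderated t, and of each gene list up to 6 called members by size and up to 3 members not called, with further members to complete a family; large changes needed at least 3 probe sets, and not all that the rule allows are printed. Members and lists were chosen with earlier results of these data known. The alternatives left out libraries singly or together, added a term for Y-linked expression, and changed the scaling, gene summary, filter, variance model, weights, block and threshold; 2 of them were chosen after seeing the data.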

Additional observations from a re-analysis of the deposited data

Results flagged for a closer look

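In 94 groups, those of the 35 genes of largest change or test statistic with Dpt and of 12 list means in oil and in CCl4, the highest and lowest libraries were compared with the rest by Dixon's criterion (0.466 for 10 libraries, 0.493 for 9). Chance flags about 1 in 20 independent groups. These groups come from the same 19 libraries, and the genes were chosen for their change in these data, so that rate does not apply. Of the 51 values that passed, 31 belong to the library labelled KO_control 10. Among the genes that CCl4 raised, this library was far above the other oil libraries for Gpnmb (9.15), Mmp12 (8.07), Col1a1 (9.26), Ly6d (9.87), Lilr4b (7.73), Itgam (8.09), Itgax (5.57), Col1a2 (8.40), Lcn2 (8.92), S100g (4.94), Saa3 (9.79), Chil3 (8.92), Col3a1 (9.19), Anxa2 (8.19) and Pdgfc (6.21). Dpt itself lay at 7.40 there. It was far below them for the genes that fell, Slco1a1 (2.51), Elovl3 (2.23), Ces3b (4.70), Slc1a2 (3.53), Sult2a8 (4.44) and Mup11 (4.21). Its list means were also apart, at 6.63 for fibrillar collagens, 7.97 for lipid-handling macrophage genes, 8.66 for lysosomal genes, 5.17 for licensing genes, 4.40 for neutrophil, 5.14 for B and plasma cell, 4.42 for exocrine pancreas, 6.20 for skeletal muscle and 5.80 for mesothelial genes.

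KO_CCl4 5 held 16 of the values. It was the highest CCl4 library for Gpnmb (10.74), Col1a2 (9.14), Col3a1 (10.31) and Lpl (9.95). It was the lowest for Ly6d (6.61), Lcn2 (7.44), Ces3b (2.28), Cyp2c69 (2.83) and Mup11 (4.24). Its list means stood apart at 7.13 for fibrillar collagens, 8.84 for lipid-handling macrophage genes, 9.17 for lysosomal genes, 6.24 for B and plasma cell genes, 8.81 for adipocyte genes, 6.95 for mesothelial genes and 7.94 for defining hepatocyte genes. The other 4 values were Slco1a1 at 3.58 and Mup-ps12 at 2.83 in KO_CCl4 9, Elovl3 at 3.75 in KO_CCl4 8 and Slc1a2 at 4.30 in KO_CCl4 1.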

How the results depend on the processing

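The counts of called genes in KO, 3100 higher and 2289 lower, moved with the threshold and the scaling. Asking for a fold of at least 2 as well left 637 and 283. Keeping genes with a mean level of at least 5 left 1800 higher. Centring each array on its median gave 4710 lower, and array weights 3795; the cause was not tested. With single KO libraries left out, the counts ran from 2804 to 3519 higher, from 1902 to 2960 lower, and 0 in the interaction. The interaction had 1 called gene without all 5 libraries that stand apart, Cdk20, a kinase gene, with a change higher in KO by 0.80 ± 0.13 (adjusted p = 0.0246). It had 1 called gene, Dpt, without both libraries whose Dpt goes against the label, and again 1, Dpt, without 10 libraries of both genotypes, 2 alternatives chosen after seeing the data. Of 317 named genes followed through the alternatives, 246 were called, and 196 of these kept the call under all alternatives that tested them. Of their 10066 values 0 were reversed, 324 lost and 238 gained a call. The same replicate numbers did not pair the KO libraries: deviations from the group means correlated between -0.12 and 0.15 over 9 pairs, 3 of them above 0.1, and 2 of 9 libraries correlated best with their own number. With the replicate block, 3496 genes were higher and 2926 lower. Precision here is set by the number of arrays.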
